A study of Mus musculus with 605 samples.

Results

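The 10 genes described here encode proteins that join epithelial cells to each other or to the basement membrane. Dsp, Jup, Pkp1, Perp, Dsg2, Dsc2 and Dsc3 belong to the desmosome, Cdh1 and Cdh3 are classical cadherins, and Itga6 is an integrin subunit. They were chosen by name, as 10 of the 30959 gene symbols in the tables, and each had a value in every cell. The study examined why hair growth is increased in skin with melanocytic nevi, using single cells from the dorsal skin of mice. Bulge stem cells, the stem cells in the permanent upper part of the hair follicle, came from wild-type skin at postnatal day 30 (WT P30), when follicles are growing, from wild-type skin at postnatal day 56 (WT P56), when they rest, and from mutant skin at postnatal day 56 (Mut P56). The study describes mutant skin as holding both growing and resting follicles. Melanocytes and myeloid cells, both WT P56 and Mut P56, served here as cell types outside the epithelium. Mutant mice carried Tyr-Nras Q61K, an activated Nras transgene that the tyrosinase regulatory sequence directs to melanocytes, so the bulge cells of these mice are neighbours of the cells that carry the change. Per the study, WT and Mut bulge cells alike carried the K14-H2B-GFP reporter, a nuclear green protein under the keratin 14 promoter, and were sorted as green cells with CD34 and low P-cadherin on their surface. P-cadherin is the product of Cdh3, so the level of Cdh3 in the bulge plates was not free of the sort. For the WT P30 cells the genotype stands only in the sample titles, and the sorts of the single melanocytes and myeloid cells are not given in the sources used here.

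Desmosomes are spot-like junctions that tie the keratin filaments of neighbouring cells together. Desmogleins and desmocollins, both cadherins, cross the membrane and meet their partners from the next cell. On the inner side, plakoglobin (Jup) and plakophilins (Pkp1 and relatives) bind the cadherin tails, and desmoplakin (Dsp) links this plaque to keratin. Adherens junctions use classical cadherins and catenins to reach actin, while hemidesmosomes use the integrin of alpha 6 and beta 4 to hold basal cells to the basement membrane. In skin, these junctions keep the epidermis and the hair follicle intact under mechanical load, and E-cadherin also joins melanocytes to keratinocytes.

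Values were kept for 566 of 605 cells, of which 256 of 277 were bulge cells, and each kept plate held between 72 and 89 cells. The unit is TPM, a transcript abundance that corrects for transcript length, so TPM can be compared between genes but keeps no sequencing depth. The deposited totals differed, with a median per cell of 808291, 889092 and 903962 in the WT P30, WT P56 and Mut P56 bulge plates. Values printed in TPM are as deposited, whereas the log2 means were scaled to a common total in each cell. The median number of genes with TPM above 0 per cell stood in for depth. It was 3192, 4271 and 4425 in the WT P30, WT P56 and Mut P56 bulge plates, and between 2233 and 2946 in the other 4. Counts of genes detected in a cell use this limit, whereas shares of cells with a gene use TPM 1 or more. The labels name no animal, so each plate is 1 sample. No difference between plates was tested, and genotype and age cannot be told apart from the plate. Spreads (SD) and 95% exact binomial (Clopper-Pearson) intervals below are over cells of 1 plate and cover counting error only. All 6 keratinocyte markers looked at (Krt5, Krt14, Krt15, Krt17, Trp63 and Sfn) were detected in each bulge plate, while Cd34 transcript was found in only 10 of 84 WT P30, 8 of 83 WT P56 and 41 of 89 Mut P56 cells, although CD34 was part of the sort. Strong marker transcripts of another cell type (at least 2 melanocyte, myeloid, T or NK cell, or fibroblast genes at TPM 100 or more) were present in 4 WT P30, 16 WT P56 and 6 Mut P56 bulge cells, most of which also held Krt5 or Krt14 at TPM 100 or more (3, 16 and 6). The mean level of 16 immediate early genes, which respond to handling and growth signals within minutes, was 1.60, 2.94 and 0.95 on the log2 scale in the WT P30, WT P56 and Mut P56 bulge plates and is given again beside the results it moved with.

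Perp stood far above the other members in all 3 bulge plates, followed by Dsc3, Dsp and Jup in WT P30 and by Jup and Dsc3 in both P56 plates. By mean TPM the order in WT P30 was Perp (2578), Dsc3 (279), Dsp (266), Jup (219.9), Cdh1 (84.8), Itga6 (66.9), Pkp1 (49.02), Dsg2 (19.4), Cdh3 (14.7) and Dsc2 (6.30). Dsc3, Dsp and Jup were neighbours there whose SDs over cells (201, 228 and 183 TPM) were larger than the gaps between their means, and the same held for Cdh1, Itga6 and Pkp1 (SDs of 79.2, 76.2 and 48.8). Dsc2 was the lowest in all 3 plates. A bulge cell had a median of 7, 8 and 7 of the 10 genes detected in WT P30, WT P56 and Mut P56, with ranges of 0 to 9, 3 to 9 and 4 to 9. Dsp, Jup, Perp and Dsc3 were detected together in 77 of 84, 73 of 83 and 76 of 89 cells (91.7%, 87.95% and 85.4%). The single WT P30 cell without any member had 3907 genes detected, none of the keratinocyte markers and 6 fibroblast genes, including Dcn, a collagen-binding proteoglycan, at 11458 TPM.

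**Figure D1:**
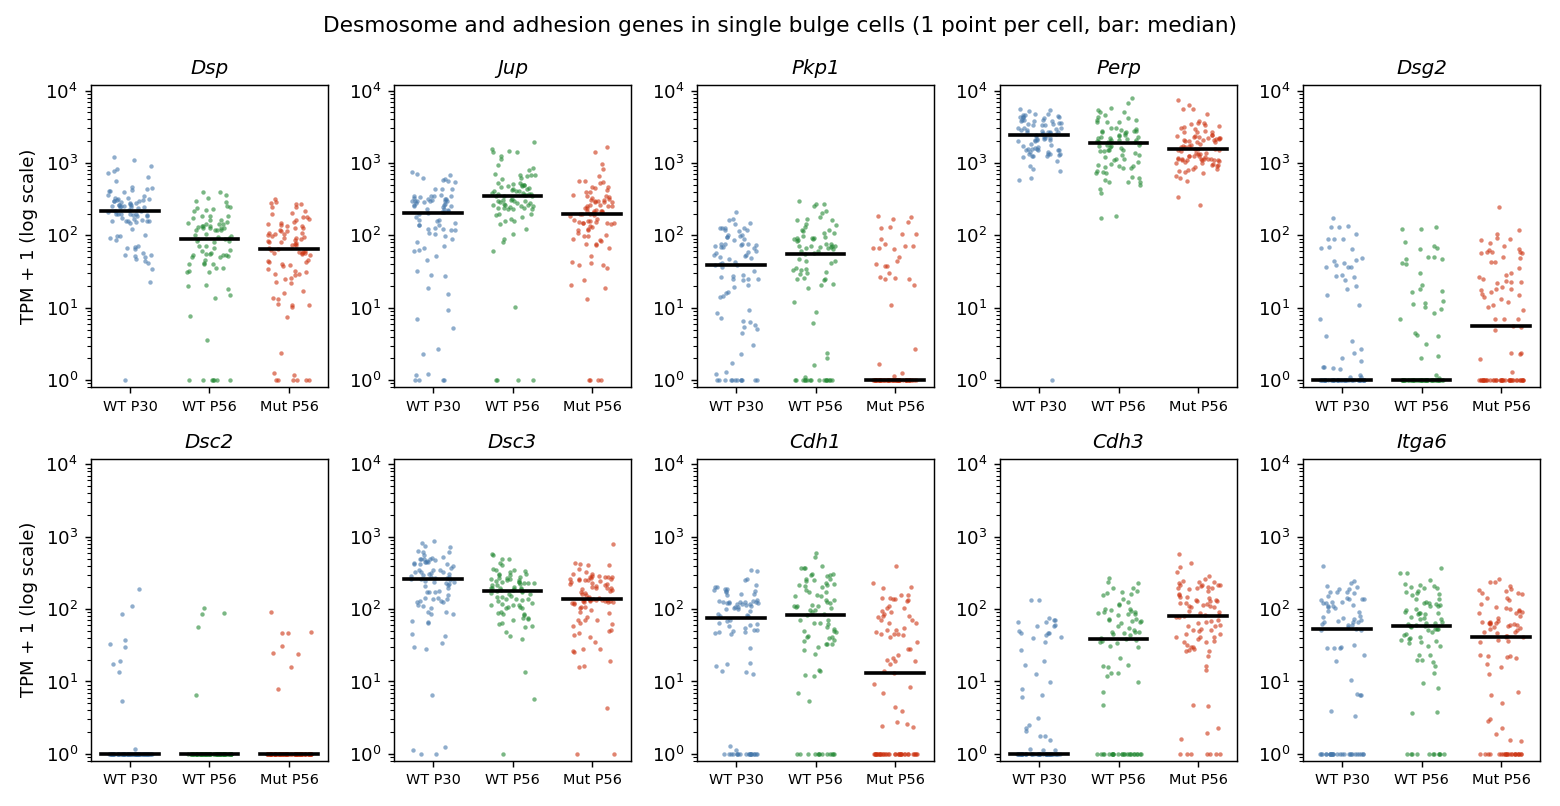
TPM + 1 on a log axis for each of the 10 genes in each of the 3 bulge plates, with 1 point for every cell and a bar at the median. Perp lies highest with medians of 2442, 1863 and 1539.6 TPM, while most cells sit on the floor of the axis for Dsc2, and the clouds of the 3 plates overlap for every gene.

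Dsp encodes desmoplakin, the plaque protein that holds keratin filaments. The lowest, median and highest Dsp values were 0, 219 and 1198 TPM in WT P30, 0, 89.2 and 396 TPM in WT P56 and 0, 64.6 and 319.8 TPM in Mut P56. WT P30 cells were therefore high and the P56 plates lower, with overlap over most of the range. Dsp was detected (TPM 1 or more) in 98.8% (93.5 to 99.97), 91.6% (83.4 to 96.5) and 91.01% (83.1 to 96.04) of the cells, so the plates differed in level more than in the share of cells with the transcript. On log2(TPM scaled to 10000 a cell + 1), the scale of every difference below, its mean was 1.86 ± 0.82 (SD, n = 84), 0.999 ± 0.63 (n = 83) and 0.84 ± 0.59 (n = 89).

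Jup encodes plakoglobin, which binds desmosomal and classical cadherins alike. Its lowest, median and highest values were 0, 205 and 743 TPM in WT P30, 0, 352 and 1949.7 TPM in WT P56 and 0, 194 and 1663 TPM in Mut P56. Here WT P56 was the high plate, and the WT P30 and Mut P56 plates had almost the same median. Jup was detected in 92.9%, 95.2% and 95.5% of the cells. Its log2 means were 1.61 ± 0.94, 2.26 ± 0.94 and 1.63 ± 0.88, a gap between the P56 plates smaller than the SD over cells of either.

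Pkp1 encodes plakophilin 1, a plaque protein that clusters desmosomal cadherins and is best known from suprabasal epidermis. Its lowest, median and highest values were 0, 38.3 and 212 TPM in WT P30, 0, 55.03 and 296 TPM in WT P56 and 0, 0 and 183 TPM in Mut P56, so more than every other mutant cell was at 0. The share of cells with Pkp1 was 82.1% (72.3 to 89.6) and 78.3% (67.9 to 86.6) in the WT plates and 31.5% (22.03 to 42.2) in Mut P56, intervals that do not meet. Among cells with Pkp1 the median was 51.4, 69.7 and 64.1 TPM. The Mut P56 plate thus had fewer cells with Pkp1, at a level in those cells between those of the WT plates.

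Promoter sequences are shown for Dsp and Jup, the 2 members matched in the promoter table used here, whose levels moved together over the cells of each bulge plate (Pearson r of 0.31, 0.43 and 0.34). Both come from RefSeq on build GRCm38.p6, from 250 bases before to 50 bases after the annotated start, read 5′ to 3′ on the gene's strand. The Jup window is chr11:100397741-100398040 on the minus strand, with 60.7% G and C. The Dsp window is chr13:38151044-38151343 on the plus strand, with 73% G and C, and the median over all 32851 promoters in the table was 52.7%. Capitals mark matches on either strand to GGGCGG (GC box, bound by Sp factors) and CACCTG (an E-box bound by Snail and Zeb factors).
Jup: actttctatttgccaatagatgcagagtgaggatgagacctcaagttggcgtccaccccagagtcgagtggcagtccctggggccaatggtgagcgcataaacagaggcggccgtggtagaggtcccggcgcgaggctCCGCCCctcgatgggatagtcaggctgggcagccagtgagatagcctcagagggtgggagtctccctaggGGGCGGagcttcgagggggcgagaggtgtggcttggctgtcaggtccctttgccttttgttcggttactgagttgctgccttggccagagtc
Dsp: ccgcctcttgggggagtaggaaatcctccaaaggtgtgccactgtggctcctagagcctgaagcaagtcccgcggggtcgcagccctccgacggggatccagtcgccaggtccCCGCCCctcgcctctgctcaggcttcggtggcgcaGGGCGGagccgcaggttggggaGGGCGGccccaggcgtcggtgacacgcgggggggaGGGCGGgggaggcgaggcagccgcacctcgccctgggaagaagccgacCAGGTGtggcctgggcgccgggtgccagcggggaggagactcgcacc
The Jup window held 2 GC boxes, and the Dsp window held 4 GC boxes and 1 E-box, with no overlap between matches. Of all promoters in the table, 35.7% held a GC box and 20.2% the E-box. Neither window held AACCGGTT, a site of the Grainyhead factors that act in epithelia, which occurred in 0.146% of promoters, nor TATAAA, which occurred in 13.6%. These matches describe the letters of the windows and were not tied to any measured binding.

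Perp encodes a tetraspan membrane protein that p53 and p63 activate and that desmosomes of stratified epithelia need. Its lowest, median and highest values were 0, 2442 and 5545 TPM in WT P30, 171, 1863 and 8017 TPM in WT P56 and 264, 1539.6 and 7539.8 TPM in Mut P56. Perp was found in all but 1 of the 256 bulge cells, the exception being the WT P30 cell without any member. The log2 means were 4.83 ± 0.89, 4.31 ± 1.01 and 4.24 ± 0.82, highest in WT P30 and close together in the P56 plates. With Trp63, the gene of p63, Perp had an r over cells of 0.0013 in WT P30, 0.38 in WT P56 and -0.0047 in Mut P56.

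Among the desmosomal cadherins, Dsc3 was the abundant one, Dsg2 was found in part of the cells and Dsc2 was rare. Dsc3 encodes desmocollin 3, the desmocollin of basal epidermal cells, and its lowest, median and highest values were 0, 256 and 867 TPM in WT P30, 0, 179.6 and 586 TPM in WT P56 and 0, 137 and 804 TPM in Mut P56. Its share of cells was high in all 3 plates, at 95.2%, 98.8% and 97.8%. Dsg2 encodes desmoglein 2, a desmoglein of simple epithelia and of less differentiated epithelial cells. Dsg2 reached 170.2, 130.3 and 248 TPM, with medians of 0, 0 and 4.56, so it was the member whose median was above 0 only in Mut P56. It was detected in 39.3% (28.8 to 50.5), 37.3% (26.97 to 48.7) and 56.2% (45.3 to 66.7) of the cells, and the interval of Mut P56 overlaps both others. Dsc2, desmocollin 2, the widely expressed desmocollin of simple epithelia, was detected in 10 of 84, 5 of 83 and 9 of 89 cells, with means of 6.30, 4.05 and 3.69 TPM. In cells with Dsc2 its median was 30.6, 84.3 and 30.4 TPM. These medians rest on few cells, and no difference between plates was tested.

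Cdh1 encodes E-cadherin, the main cadherin of epithelial adherens junctions. Its lowest, median and highest values were 0, 75.1 and 343 TPM in WT P30, 0, 82.8 and 588 TPM in WT P56 and 0, 12.01 and 395 TPM in Mut P56, with Mut P56 the low plate. Cdh1 was detected in 75% (64.4 to 83.8), 84.3% (74.7 to 91.4) and 60.7% (49.7 to 70.9) of the cells, and the intervals of the P56 plates do not meet. In the cells with Cdh1 the median was 111, 107 and 49.95 TPM.

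Cdh3 encodes P-cadherin, which in the follicle is high in the hair germ and the growing matrix and low in the bulge, the ground for its use in the sort. Its lowest, median and highest values were 0, 0 and 134 TPM in WT P30, 0, 37.3 and 266 TPM in WT P56 and 0, 79.99 and 573 TPM in Mut P56. The share of cells with Cdh3 was 35.7% (25.6 to 46.9), 69.9% (58.8 to 79.5) and 89.9% (81.7 to 95.3), so the order of the plates was the reverse of that of Dsp. Since every bulge cell had passed a gate on low P-cadherin protein, these values describe cells below that gate, and whether the gate sat at the same place in the 3 sorts was not tested.

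The balance of the classical cadherins differed between the plates. Both transcripts were found in 20 of 84 WT P30, 50 of 83 WT P56 and 47 of 89 Mut P56 cells. Cdh1 without Cdh3 was found in 43, 20 and 7 cells, and Cdh3 without Cdh1 in 10, 8 and 33. Cdh3 exceeded Cdh1 in TPM in 13 WT P30 cells (15.5%), 28 WT P56 cells (33.7%) and 65 Mut P56 cells (73.03%). Within each bulge plate the transcripts were weakly opposed (r of -0.23, -0.28 and -0.29, over 84, 83 and 89 cells). Given the immediate early mean of each cell, r was -0.22, -0.27 and -0.15. In melanocytes r was 0.19 (WT, n = 81) and -0.0098 (Mut, n = 84).

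**Figure D2:**
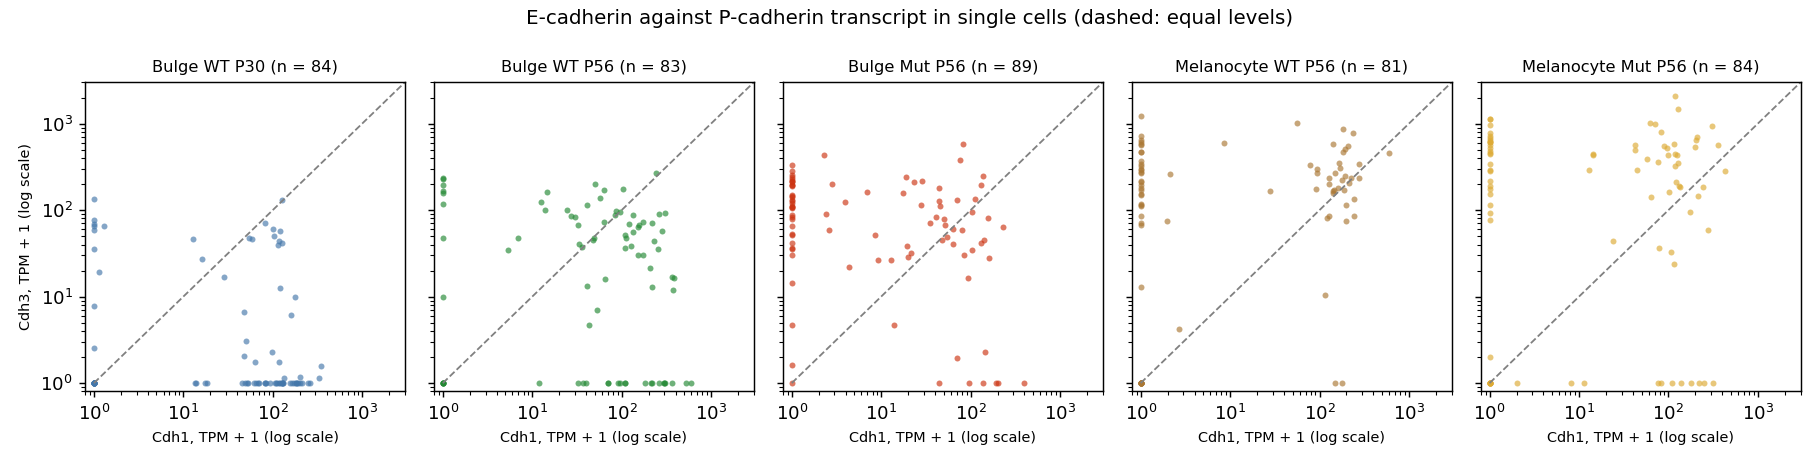
Cdh3 against Cdh1, both as TPM + 1 on log axes, with 1 point per cell, in the 3 bulge plates and the 2 melanocyte plates, and a dashed line at equal levels. Most WT bulge cells lie on the Cdh1 side of the line, while 73.03% of Mut P56 bulge cells and 71.6% and 69.05% of WT and Mut melanocytes lie on the Cdh3 side.

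Itga6 encodes integrin alpha 6, the partner of integrin beta 4 in hemidesmosomes, where basal cells meet the laminin of the basement membrane. This protein is also called CD49f, which together with CD34 marked bulge stem cells in other assays of the study. Its lowest, median and highest values were 0, 51.8 and 388 TPM in WT P30, 0, 58.1 and 368 TPM in WT P56 and 0, 40.1 and 259 TPM in Mut P56, with overlap over almost the whole range. It was detected in 67.9% (56.8 to 77.6), 86.7% (77.5 to 93.2) and 70.8% (60.2 to 79.9) of the cells. Across the cells of each plate Itga6 followed Krt5, a basal keratin, with r of 0.42, 0.56 and 0.38. With Itgb4, the gene of its partner chain, r was 0.24, 0.43 and 0.23.

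In melanocytes and myeloid cells most members were at or near 0, whereas Jup was found in both cell types and Cdh1 and Cdh3 in melanocytes. Dsp was detected in 2 of 81 WT and 4 of 84 Mut melanocytes and in 0 of 73 WT and 2 of 72 Mut myeloid cells, at means of 2.28, 4.02, 0 and 0.581 TPM. Perp means were 36.4 and 99.1 TPM in WT and Mut melanocytes, from 6 of 81 and 16 of 84 cells, and 0 and 4.24 TPM in myeloid cells. The epithelial pattern held for the other desmosome members. Pkp1 was detected in 2 of 81 WT and 5 of 84 Mut melanocytes, Dsc3 in 3 of 81 and 4 of 84, and Dsg2 in 1 of 81 and 1 of 84. In the WT and Mut myeloid plates the counts were 0 of 73 and 0 of 72 for Pkp1, 0 of 73 and 1 of 72 for Dsc3, and 0 of 73 and 1 of 72 for Dsg2. Dsc2 was at 0 in all 4 of these plates, which allows shares of up to 3.70%, 3.57%, 4.11% and 4.17% in WT and Mut melanocytes and WT and Mut myeloid cells. These plates serve as the background for the bulge shares, with the caution that fewer genes per cell were detected in them.

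P-cadherin and E-cadherin transcripts were plentiful in melanocytes. Cdh3 had its highest mean of all 7 plates there, with 258 TPM in WT and 365 in Mut melanocytes, detected in 85.2% and 78.6% of cells and reaching 1224 and 2064 TPM. No Cdh3 was detected in the 73 WT and 72 Mut myeloid cells. Cdh1 means were 81.8 and 77.1 TPM in melanocytes, near the 84.8 of WT P30 bulge cells, and 0.918 and 5.67 TPM in myeloid cells, from 3 of 73 and 7 of 72 cells. Of those 10 myeloid cells, 1 also held Cd207, the langerin of Langerhans cells, which are skin myeloid cells known to carry E-cadherin. Cd207 was detected in 8 of 73 WT and 11 of 72 Mut myeloid cells, so most cells with Cd207 had no Cdh1 detected. The cell with the most Cdh1 (205.8 TPM, Mut) held no Cd207. Its Cd74, a myeloid marker looked at here, was 0.6 TPM, against a median of 42772 in that plate. Krt14 was present in other Mut cells of the 10, at 59.9 and 89.4 TPM.

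Plakoglobin was the member shared most widely. Jup was detected in 20.99% of WT and 27.4% of Mut melanocytes, with means of 44.7 and 53.9 TPM, and in 63.01% of WT and 62.5% of Mut myeloid cells, with means of 55.97 and 79.9 TPM. Myeloid cells thus held Jup with Dsp, Pkp1, Dsc2, Dsc3, Cdh3 and Perp at or near 0. Within the myeloid plates, the 4 WT and 6 Mut cells with at least 2 CD3 genes, which mark T cells, all lacked Jup. Fewer genes were detected in those cells, with medians of 2402 against 2975 in WT and 1842 against 2968 in Mut, and this division was made after values were seen. Itga6 was low in both cell types, with means of 31.99 and 14.7 TPM in melanocytes and 0.141 and 0 TPM in myeloid cells.

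Part of the epithelial members in the melanocyte plates sat in cells with strong keratin transcripts. Krt5 or Krt14 was at TPM 100 or more in 7 WT and 9 Mut melanocytes. In the other 74 WT and 75 Mut cells Dsp was at 0 throughout, and Perp was detected in 2.70% and 12%. Cdh3 was still detected in 85.1% and 76% of these cells, Cdh1 in 48.6% and 64%, and Jup in 17.6% and 25.3%. So the cadherin shares in melanocytes changed little without the keratin-high cells, whereas the Dsp share went to 0. This division of the cells was chosen after values were seen.

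**Figure D3:**
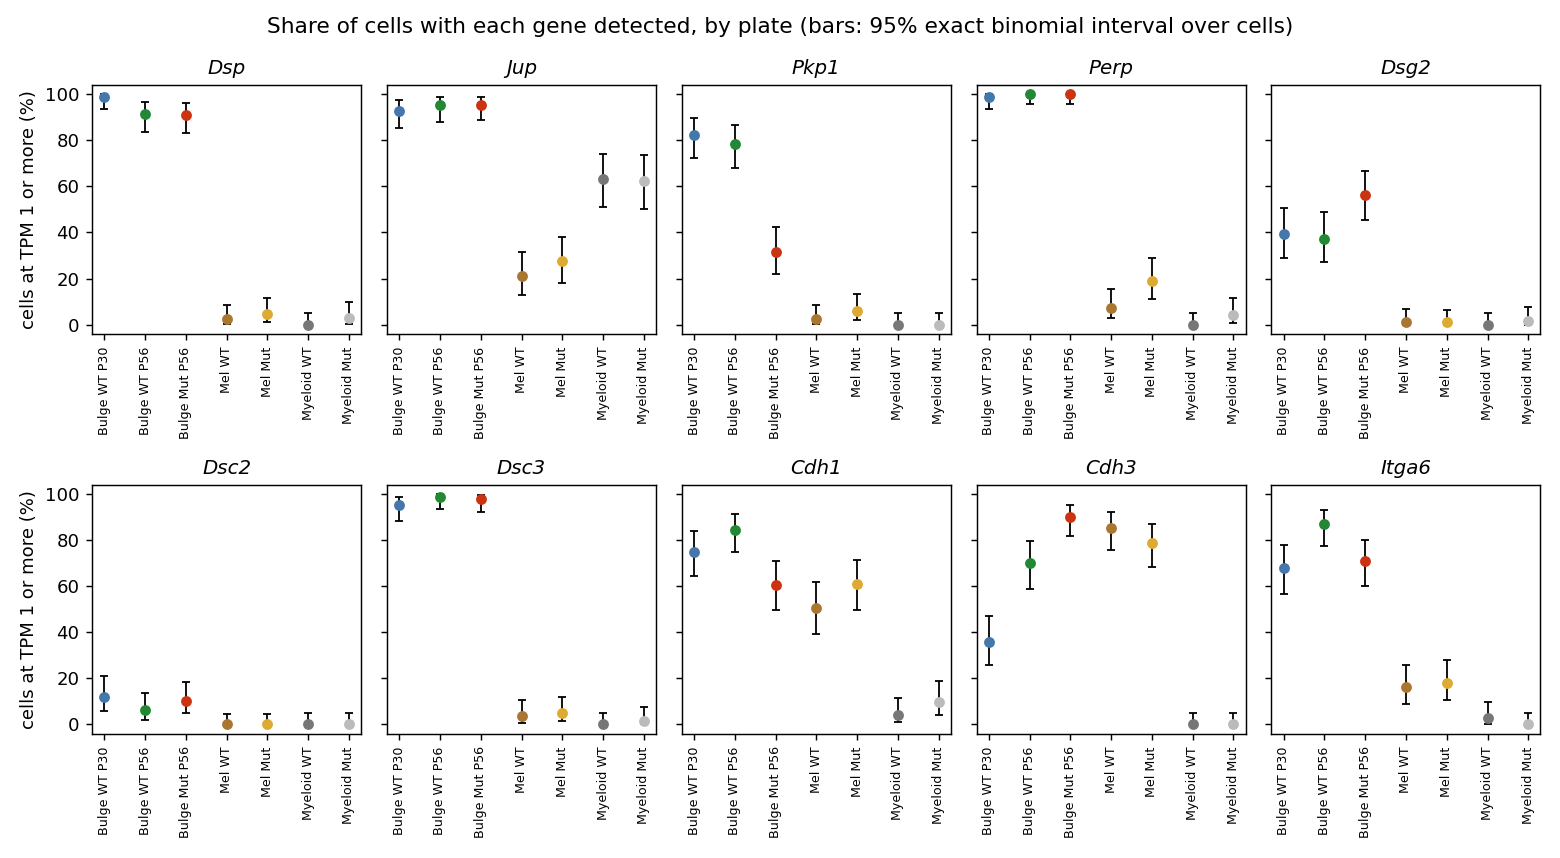
Share of cells in percent with each gene at TPM 1 or more in each of the 7 plates, with 95% exact binomial intervals over cells. Perp runs from 100% in WT P56 bulge cells to 0% in WT myeloid cells, Cdh3 is detected in 85.2% of WT melanocytes against 35.7% of WT P30 bulge cells, and Pkp1 in 31.5% of Mut P56 against 78.3% of WT P56 bulge cells.

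The comparison of Mut P56 and WT P56 bulge cells sets skin with and without the nevus side by side at one age. Follicle phase was not matched in this pair, as mutant skin held both growing and resting follicles and WT P56 skin resting ones. Over all cells, Jup and Cdh1 were lower in the mutant plate by more than 0.5 on the log2 scale, and no member was higher by that much. The difference was -0.63 for Jup and -0.56 for Cdh1. Of the 10666 genes that passed a detection limit (TPM 1 or more in 10% or more of cells, in one plate or the other), 2.03% were lower by at least 0.5 and 2.83% higher, beside 2 and 0 of the 10 members. Differences for the rest, in order of size, were -0.44 for Pkp1, 0.38 for Cdh3, -0.23 for Itga6, -0.17 for Dsc3, -0.16 for Dsp, 0.095 for Dsg2, -0.072 for Perp and 0.00011 for Dsc2. The median over the members was -0.17, and over all genes 0.013. The Jup and Cdh1 differences were smaller in one part of the plates than in the other. In the cells of plate rows A to D the differences were -0.45 for Jup and -0.38 for Cdh1, and in rows E to H -0.81 and -0.73. Cdh3 depended on the rows as well. Its log2 means in Mut P56 and WT P56 were 0.81 and 0.65 in rows A to D. In rows E to H they were 1.14 and 0.54, so Cdh3 was higher by more than 0.5 in that part. Immediate early genes moved with the same pair of plates, with 15 of 16 lower in Mut P56 by at least 0.5 (median -1.94). In the 8 Mut P56 and 30 WT P56 cells whose immediate early mean lay in a range shared by both plates (1.52 to 3.05), the differences were 0.41 for Jup, 0.062 for Cdh1 and 0.13 for Pkp1, so none of the 3 was lower in Mut P56 there, over few mutant cells. In the 65 Mut P56 and 80 WT P56 cells with Krt14 no member reached 0.5, with log2 means of 1.71 and 2.21 for Jup, just short of that limit, and 0.54 and 0.98 for Cdh1.

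Among the other junction genes, differences of 0.5 or more between the P56 plates were found in the hemidesmosome and basement membrane list and in none of the other 3 lists. Of 11 other desmosome genes 7 passed the detection limit, all 7 were lower in Mut P56 and none by 0.5, with a median of -0.12. The widest gap was that of Pkp3, plakophilin 3, at 365 TPM in WT P56 and 306 in Mut P56 (difference -0.25). Of 8 adherens junction genes that passed, 5 were higher and 3 lower, none by 0.5 (median 0.019), and of 9 tight junction genes 2 were higher and 7 lower, none by 0.5 (median -0.059). Hemidesmosome and basement membrane genes were split, with 1 of 11 higher and 2 lower by 0.5 or more. Col17a1, the hemidesmosome collagen, differed by -1.49 and Lamb3, a laminin 332 chain, by -0.56, while Itgb1, integrin beta 1, was higher by 0.52. Another list held both regulators and surface proteins of epithelial cells. All 10 of its genes that passed were lower and 3 by at least 0.5, namely Klf5 (-0.82), Ovol1 (-0.80) and the adhesion molecule gene Epcam (-0.64). Beside these counts, the median over all genes was 0.013, with 2.03% lower and 2.83% higher by at least 0.5. Of 8 genes known from mesenchymal cells, 3 passed. Snai2, a Snail family repressor that binds E-boxes, was higher by 0.64, while the intermediate filament gene Vim differed by -0.22 and the fibronectin gene Fn1 by 0.07. Keratinocyte markers had wider gaps than the junction lists, with a median of -0.68 over 6 genes and 4 lower by at least 0.5, led by Krt14 (-2.98), and 1 higher, Krt17 (0.60).

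Between WT P56 and WT P30 bulge cells, follicles at rest and in growth, Dsp and Perp were lower at P56 and Jup was higher. The differences were -0.87 for Dsp, -0.52 for Perp and 0.65 for Jup. Of 9856 genes, 2.14% were lower and 3.24% higher by at least 0.5, beside 2 and 1 of the 10 members. Cdh3 differed by 0.40, Dsc3 by -0.37 and the remaining 5 members by -0.082 to 0.14. The member median was 0.03, and over all genes 0.047. Hemidesmosome and basement membrane genes went one way here, with all 11 higher at P56, 3 of them by at least 0.5, namely Col17a1 (1.62), Cd151 (0.81), a tetraspanin that binds the laminin receptors, and Itgb4 (0.53), the partner of Itga6. Itga6 itself differed by 0.10. Over those 11 genes the median was 0.25, and the share of all genes higher by any amount was not counted. Fewer genes were detected per cell in WT P30 (median 3192 against 4271). Of the 11, Itga2 was near the floor, with means of 0.191 TPM in WT P30 and 1.29 in WT P56. Pkp3 was higher by 0.84, the same side as Jup and opposite to Dsp. Immediate early genes were higher at P56 as well, 13 of 16 by at least 0.5 (median 1.63). The Perp and Jup differences also depended on the part of the plate, with -0.86 and -0.16 for Perp and 0.49 and 0.82 for Jup in rows A to D and E to H, whereas Dsp gave -0.88 and -0.85.

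Mut P56 against WT P30 bulge cells gave Dsp (-1.03), Perp (-0.59) and Dsc3 (-0.54) lower and Cdh3 higher (0.78). Of 10165 genes, 1.98% were lower and 4.24% higher by at least 0.5, beside 3 and 1 of the 10 members, and the member median was -0.24 against 0.058 over all genes. In rows E to H the Perp difference was -0.40. Jup differed by 0.022, Cdh1 by -0.43, Pkp1 by -0.35 and Itga6 by -0.13. The 3 bulge comparisons share plates, so they are not independent of each other. Immediate early genes moved with this pair of plates too, with 8 of 16 lower in Mut P56 by at least 0.5 (median -0.43).

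**Figure D4:**
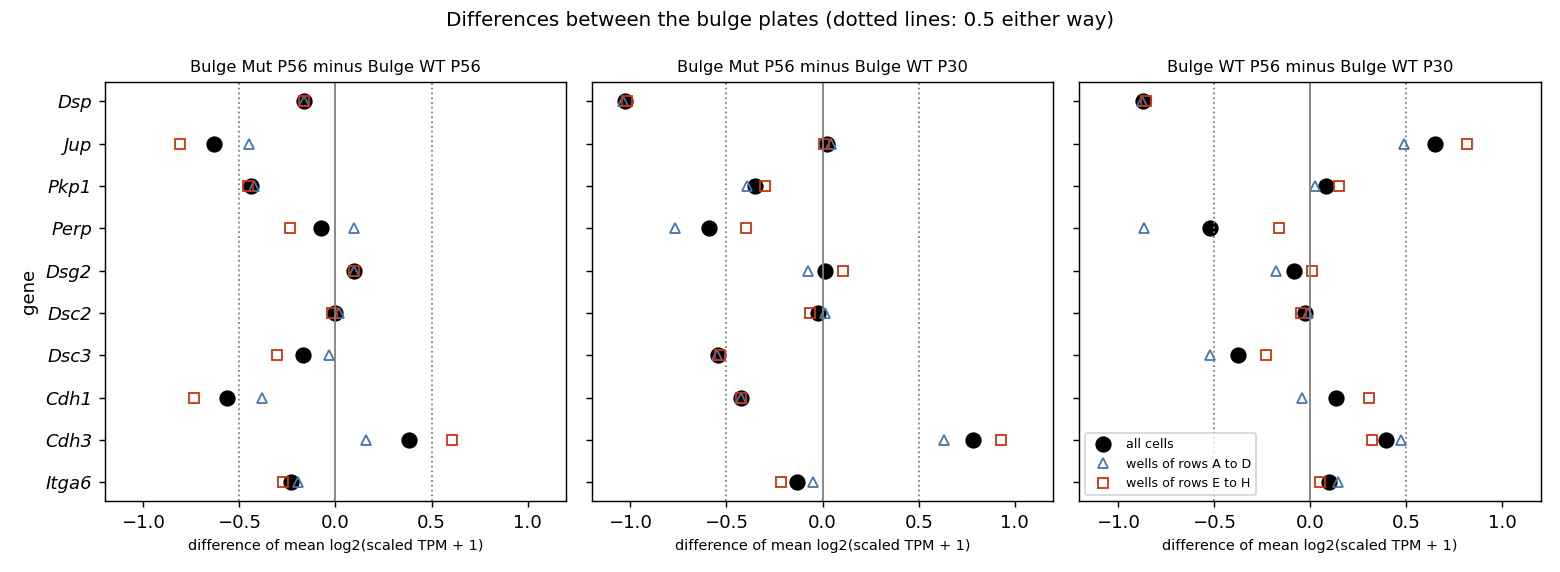
Difference of mean log2(scaled TPM + 1) of each of the 10 genes for the 3 pairs of bulge plates, over all cells and over the cells of plate rows A to D and E to H, with dotted lines at 0.5 on either side of 0. Dsp lies at -1.03 for Mut P56 against WT P30 and -0.87 for WT P56 against WT P30, but at -0.16 between the P56 plates, where Jup (-0.63) and Cdh1 (-0.56) lie farthest to the left.

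Against WT melanocytes, WT P56 bulge cells had 6 of the 9 members that passed the detection limit higher by at least 0.5 and 1 lower. Of 10059 genes, 6.67% were higher and 3.11% lower. The 6 were Perp (4.12), Jup (1.93), Dsc3 (1.48), Dsp (0.97), Pkp1 (0.67) and Itga6 (0.57), and Cdh3 was the lower one (-1.05). Cdh1 differed by 0.30 and Dsg2 by 0.16. Against WT myeloid cells 8 of 9 members were higher and none lower, beside 8.14% and 4.09% of 10527 genes, with Dsg2 at 0.16. The bulge and other plates hold different cell types, so a detection filter passed through the bulge plate alone fixes the direction of most of these values. Between Mut and WT melanocytes no member of the 5 that passed reached 0.5 in either direction, beside 2.76% higher and 1.42% lower of 8305 genes, with Perp at 0.19 and Cdh3 at 0.18. Between Mut and WT myeloid cells Jup alone passed, at 0.17, beside 0.573% higher and 0.742% lower of 7683 genes.

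Across single bulge cells, 6 of the 10 genes rose and fell together. In Dsp, Jup, Pkp1, Perp, Dsc3 and Cdh1, picked after the correlations were seen, the 15 pairwise r values had a median of 0.34 in WT P30, 0.41 in WT P56 and 0.39 in Mut P56. Over all 45 pairs of members the medians were 0.07, 0.11 and 0.088, and 9, 12 and 14 pairs reached 0.3. Over all pairs of genes found in at least 25% of the cells of a plate the medians were 0.0073, 0.0042 and 0.0073, and 1.30%, 1.25% and 1.36% of pairs reached 0.3. The points are cells of 1 plate that share library preparation and differ in depth, so these r values are descriptions.

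Perp was the member that most others followed. Averaged over the 3 plates it was the closest partner of Jup (mean r 0.53), Dsp (0.50), Pkp1 (0.45), Cdh1 (0.42) and Dsc3 (0.42). Perp with Jup gave 0.47, 0.68 and 0.44 in WT P30, WT P56 and Mut P56, and Perp with Dsp gave 0.47, 0.55 and 0.47. Other pairs among the 6 were weaker or less even, since Dsp with Dsc3 gave 0.49, 0.10 and 0.31, Pkp1 with Cdh1 0.18, 0.19 and 0.48 and Dsc3 with Cdh1 0.27, 0.016 and 0.23. Without the WT P56 cells that held markers of another cell type, the lowest of the 15 values in that plate was -0.068. Itga6 lay closest to Cdh1 (0.23, 0.21 and 0.46). Dsg2 and Dsc2 had no member above a mean r of 0.14 and 0.071, and Dsc2 did not follow its relative Dsc3 (-0.0056, 0.039 and 0.18). Cdh3 stood opposite to Pkp1 (-0.23, -0.26 and -0.43) as it did to Cdh1.

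**Figure D5:**
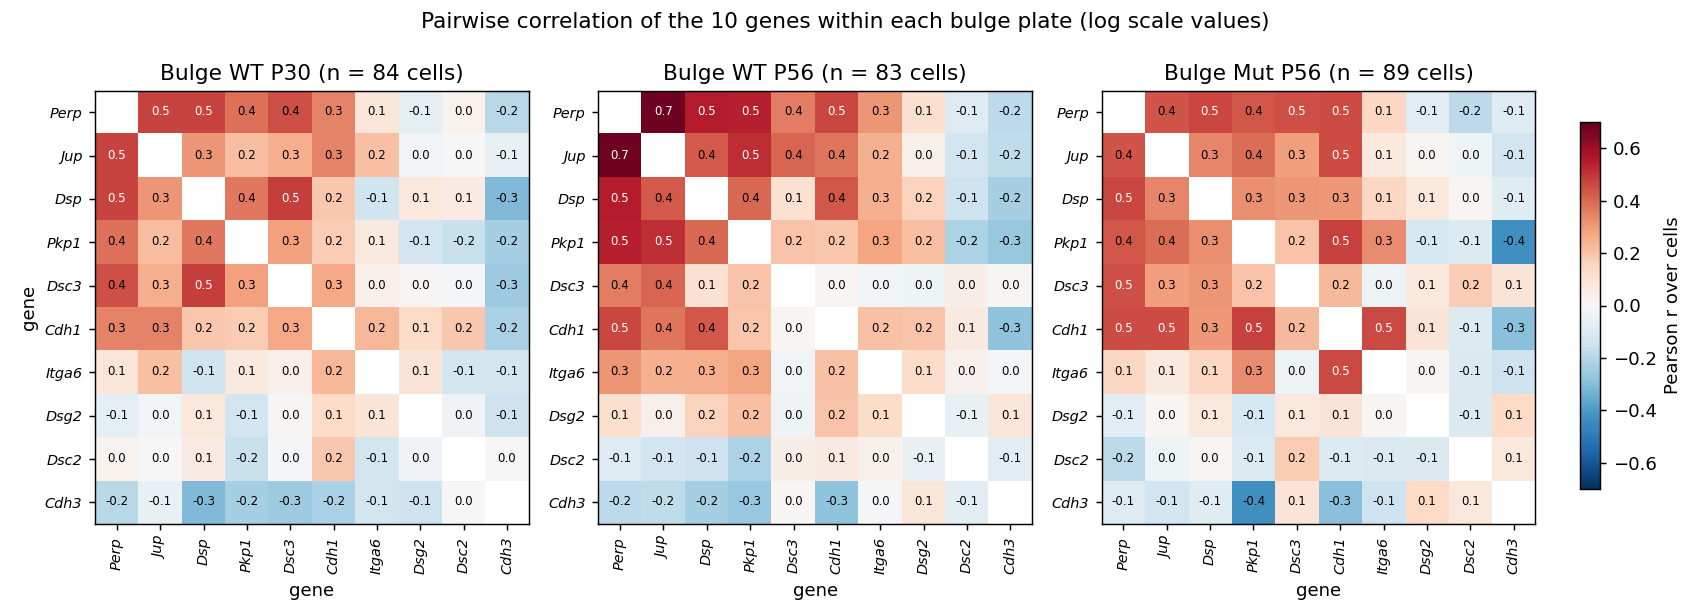
Pearson r over cells for every pair of the 10 genes within the WT P30, WT P56 and Mut P56 bulge plates, as a colour from negative to positive. The block of Perp, Jup, Dsp, Pkp1, Dsc3 and Cdh1 is positive in all 3 plates, with medians of 0.34, 0.41 and 0.39, while Cdh3 is negative with Cdh1 in each (-0.23, -0.28 and -0.29).

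The joint movement of the 6 genes was about as large in cells without markers of another cell type, with medians of 0.34, 0.41 and 0.41. Given the number of genes detected in each cell the medians were 0.33, 0.39 and 0.39, given the TPM total 0.30, 0.30 and 0.43, and given the immediate early mean 0.35, 0.39 and 0.26. The immediate early mean mattered most in Mut P56, where it followed the mean of the 9 members other than Cdh3 with r of 0.60, against -0.12 in WT P30 and 0.30 in WT P56. In Mut P56 it followed Pkp1 (0.60), Perp (0.53) and Cdh1 (0.50) and opposed Cdh3 (-0.34). In WT P30 it opposed Dsp (-0.46). The TPM total of a cell followed the mean of the same 9 members with r of 0.60 in WT P56, against 0.20 in WT P30 and 0.19 in Mut P56. For the mitochondrial share r was -0.38 in WT P56, 0.10 in WT P30 and -0.10 in Mut P56.

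Outside the members, the genes whose levels followed the mean of the 9 members other than Cdh3 most closely included another desmosomal cadherin. Of 3837 genes ranked by mean r over the 3 plates, the highest included Lgals3 (0.61), Sfn (0.59), Cdkn1a (0.59), Dsg1a (0.57), Anxa2 (0.55), Cd109 (0.54) and Anxa1 (0.52). Dsg1a encodes a desmoglein of differentiating epidermis, and Cdkn1a the cell cycle inhibitor p21. The 5 lowest were Ftl1 (-0.49), Maged1 (-0.44), Ngfrap1 (-0.43), Ctsz (-0.42) and Tmsb10 (-0.41). For Dsg1a the values by plate were 0.43 in WT P30, 0.70 in WT P56 and 0.59 in Mut P56. The median over all ranked genes was 0.0071, 0.044 and -0.046 in the same plates.

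In the few bulge cells with suprabasal transcripts, Perp and Jup were higher in all 3 plates and Cdh3 was lower. At least 2 of Krt1, Krt10 and Krtdap, genes of cells that have left the basal layer, were at TPM 10 or more in 16 WT P30, 11 WT P56 and 4 Mut P56 cells, a division made after values were seen. In WT P56 such cells had mean Perp of 4436 TPM against 1770.0 in the others, Jup of 942 against 359.9, and Pkp1 of 140.0 against 55.3. The other way went Cdh3, at 18.5 against 61.95 TPM, Dsg2, at 1.65 against 15, Itga6, at 62.7 against 84.2, and Dsc2, at 0 against 4.67. The 4 Mut P56 cells of this kind all held Pkp1, which was detected in 28.2% of the other 85, so the low Pkp1 share of that plate stood without them too, and none of the 4 held Dsg2, found in 58.8% of the others. In WT P30 the gap for Perp was 3541 against 2352 TPM and for Jup 321 against 196, while Dsp stood at 244 against 272.

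In Mut P56, cells with the cell cycle kinase transcript Cdk1 had lower mean Dsp, Perp and Jup. Cdk1 was at TPM 1 or more in 7 WT P30, 2 WT P56 and 27 Mut P56 cells. In Mut P56 Dsp averaged 34.1 TPM in cells with Cdk1 and 107 in the others, Perp 1246 and 2209, and Jup 152 and 296. Cdh3 was closer, at 98.6 and 113 TPM, as was Dsg2, at 19.8 and 22.1. More genes were detected in the Cdk1 cells (median 5678 against 4106), and as TPM is a share of a cell's transcripts, a lower TPM there need not mean fewer molecules.

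Cells of the Mut P56 plate also differed by Cd34 transcript, whose product was part of the sort as a marker of bulge stem cells. In its 41 cells with Cd34, Perp averaged 1370.2 TPM against 2383 in the 48 without, and Cdh3 141 against 80.7. Pkp1 was detected in 21.95% and 39.6%, and Dsg2 in 70.7% and 43.8%. Cells with Cd34 were thus lower in Perp and Pkp1 and higher in Cdh3 and Dsg2 within the plate. The 10 WT P30 and 8 WT P56 cells with Cd34 were also lower in Perp (1737 against 2692 and 1080 against 2235 TPM). Pkp1 was detected in 60% against 85.1% and 37.5% against 82.7%, and mean Cdh3 was 40.4 against 11.2 and 59.8 against 55.8 TPM. Dsg2 differed from Mut P56, at 20% against 41.9% and 37.5% against 37.3%. The 10 WT P30 cells with Cd34 include the cell without any member. That cell held fibroblast genes and no keratinocyte marker, and it lowers the means and shares of the 10. The divisions by Cdk1 and by Cd34 were made after values were seen.

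Krt14, a basal keratin to which desmosomes anchor, was at TPM 1 or more in 65 of the 89 Mut P56 cells. Among these cells Cdh1 averaged 53.96 TPM and was detected in 69.2%, against 17 TPM and 37.5% in the 24 without Krt14. Itga6 averaged 63.02 against 33.9 TPM, and Pkp1 was detected in 35.4% against 20.8%. Perp differed less, with 1969 and 1775 TPM, and was present in every cell of both kinds. The cells without Krt14 were thus lower in Cdh1, and a median of 4638 genes was detected in them against 4365 in the others. This division, too, was made after values were seen.

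Several members are neighbours in the genome (GRCm38, GENCODE M21, all protein coding). Cdh3 (chr8:106510891-106557297, plus strand) lies 46.1 kb before Cdh1 (chr8:106603351-106670246, plus strand), and these neighbours were opposed across bulge cells as given above. Dsc3 (chr18:19960930-20002351) and Dsc2 (chr18:20030633-20059554), both on the minus strand, are 28.3 kb apart, and Dsg2 (chr18:20558074-20604521, plus strand) lies 499 kb farther on, yet their mean TPM in WT P30 was 279, 6.30 and 19.4. The other 5 lie apart, with Dsp at chr13:38151294-38198577 (plus), Jup at chr11:100368958-100397763 (minus), Pkp1 at chr1:135871395-135919207 (minus), Perp at chr10:18845020-18857073 (plus) and Itga6 at chr2:71745616-71858416 (plus). The values are per gene, so no exon or isoform can be told apart from them.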

How the data were processed

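Single cells from 7 plates were captured in microfluidic chambers, and the authors made full-length cDNA, leaving out chambers seen to hold no cell or several cells. No doublet caller was run here. Alignment by the authors used STAR, given as 2.4.2 in the submitters' processing notes, on build GRCm38 (mm10), and RSEM then gave a value for each GENCODE gene. The deposited values are TPM per gene and cell, as the file labels say, although FPKM is the unit in the written methods. The other columns used were gene identifiers. TPM keeps no read depth, so genes detected per cell stood in for it.

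The limits in the study's methods for bulge cells (TPM total of at least 750000, mitochondrial share of at most 20%, 2000 to 7000 genes) left 256 of the 277 deposited bulge columns. For melanocytes and myeloid cells the same limits on total and mitochondrial share were used with a minimum of 1000 genes that was set here, which left 566 of 605 cells in all. One WT myeloid column (1 in all) matched no sample and was not used, and the 77 Mut myeloid columns carry no well and entered by group. The 31002 identifiers gave 30959 symbols, 38 of which had several identifiers and were averaged, and 27 that a spreadsheet had respelled were restored by identifier. No pair of cells was identical.

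TPM were scaled to 10000 a cell and log2 transformed after adding 1. Differences are between plate means of these values, and "by at least 0.5" was the limit of size used in place of a test, over genes with TPM 1 or more in 10% or more of cells in one plate or the other. Fold changes of low genes are understated on this scale. Correlations are Pearson r over the cells of 1 plate. Shares have Clopper-Pearson intervals, and a share of 0 is given with the limit of 3 cells. The genes named are the 10 members, up to 3 genes with the largest differences of each of the 16 lists, and the 8 highest and 5 lowest by mean r with the members among genes found in at least 25% of the cells of each bulge plate, of which 1 is not reported here. The members, lists and comparisons were chosen with earlier results of these data known. One list gene (1 in all) had no row. Scripts were tested on simulated data. Software was pandas 2.3.3 and NumPy 2.4.6 under Python 3.11.15, with matplotlib 3.10.9 for plots and SciPy 1.17.1 for intervals. Alternatives tried were another pseudocount, no scaling, other detection filters, a limit of 1, cells of 3000 to 5000 genes, parts of the plates, a shared immediate early range and, chosen after seeing the data, cells without markers of other types and cells with Krt14.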

Additional observations from a re-analysis of the deposited data

How the results depend on the processing

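No paired analysis was possible because the numbers in the labels name wells of a plate and no test between plates was made. With each plate as 1 sample, no sample could be left out. Of the member differences 397 moved by less than the spread between cells, 143 by more, and for 2 a difference of 0.5 or more changed sign. Of the shares, 138 of 140 kept within their interval when detection meant TPM above 0 or TPM 5 or more, and the 18 alternative medians of the correlations over pairs of members lay between 0.022 and 0.20. Over the 6 genes, the median in Mut P56 went from 0.39 to 0.26 given the immediate early mean, and in WT P56 from 0.41 to 0.30 given the TPM total. Of the counts of members at 0.5 or more, 65 of 78 stayed within 1.5 times the value reported. The others follow, with the cause not tested except where fewer cells, a higher limit or a smaller pseudocount is itself the change.

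For Mut P56 against WT P56 the count of 2 became 5 with a pseudocount of 0.1, 6 with unscaled TPM, and 0 with a limit of 1, in cells with 3000 to 5000 genes, in rows A to D and in cells with Krt14 (chosen after seeing the data), where Jup lay just short of 0.5. Its median of -0.17 became -0.33 (pseudocount 0.1), -0.37 (unscaled), -0.27 (rows E to H) and 0.13 (shared immediate early range, 8 and 30 cells), where Jup (0.41), Cdh1 (0.062) and Pkp1 (0.13, from -0.44) changed sign. For Mut P56 against WT P30 the median of -0.24 became -0.35 with a 25% detection filter and -0.41 with the smaller pseudocount, and 1 of the 4 members stayed beyond a limit of 1. For WT P56 against WT P30 the count of 3 became 5 unscaled and 0 at a limit of 1. Against WT melanocytes the WT P56 bulge median of 0.67 became 2.32 (pseudocount 0.1) and 4.52 (unscaled), and the count of 7 became 4 at a limit of 1. Against WT myeloid cells the median of 0.998 became 2.95 and 5.17 and the count of 8 became 3. For Mut against WT melanocytes the unscaled values gave 2 members and a median of 0.43, and cells with 3000 to 5000 genes (33 and 11) gave 1 member and a median of -0.19, against 0 members and 0.094. For Mut against WT myeloid cells the median of 0.17 became 0.0004 with no gene filter, 0.38 with the smaller pseudocount and 0.49 unscaled. Without bulge cells that held markers of another cell type (chosen after seeing the data) the bulge counts were 3, 4 and 2 for Mut P56 against WT P56, Mut P56 against WT P30 and WT P56 against WT P30. TPM keeps no depth, so how far low shares reflect missed transcripts was not tested.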
